A study of Oryza sativa with 39 samples.

Results

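CJ03 (Chungjiang 03 jing) and T202 (Tai202) are conventionally bred rice lines (Oryza sativa) of the Geng/Japonica (GJ) subspecies that have the variety XS11 (Xiushui 11) as a common parent. The comparison rests on all 3 libraries labelled CJ03 and all 3 libraries labelled T202, which are 6 of the 39 libraries of the series, and it was set to describe the genes whose leaf RNA differed between lines bred from the same parent. Neither line was genetically engineered. The plants of both lines were grown under the same conditions in a glasshouse and were 5 weeks old, at the tillering stage. Each library was made from a pool of leaf blade sections of 5 plants, so the spread between the 3 libraries of a line is that between pools, and each line is represented by 1 variety. The other lines of the series are used only for the level of the same genes. Those of the GJ subspecies are XS11 itself, its conventionally bred relative JH1, and KMD1 and KMD2. KMD1 and KMD2 are genetically engineered lines made from XS11 that carry a gene of Bacillus thuringiensis. A further 7 lines are of the Xian/Indica (XI) subspecies, and all are MH63 or derive from it. T1C-19 and HH1 are genetically engineered lines made from MH63 that also carry a gene of Bacillus thuringiensis. XIY63, XXY63, SY63 and JY63 were bred by crossing MH63 with other varieties.

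Varieties of a selfing cereal such as rice are nearly homozygous, and lines that share 1 parent inherit some chromosome segments in common and other segments from different parents. Genes that lie side by side on a segment are inherited together. Differences between varieties in leaf RNA are known to include graded changes of level, and also genes that are read in one variety and not in another, because the gene or its promoter is missing, altered or silent there. RNA sequencing with alignment to 1 reference genome counts a gene that is absent, a gene that is silent and a gene whose sequence has diverged too far to be aligned in the same way, and these cannot be told apart here. The reference is that of a Japonica variety.

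A gene of the reference annotation carries an identifier that names its chromosome in the first 2 digits and its order along that chromosome in the digits that follow. OS06G0580100, for example, lies on chromosome 6 between OS06G0579800 and OS06G0581300 among the loci tested here. Predicted genes carry only a running number and have no known place. Of 37830 reference identifiers in the files, 1 was found in the RefSeq gene table used here, so no gene name, function or pathway is given for any locus, and pathway lists and leaf marker genes were not analysed here.

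Between 4678465 and 6362517 reads lay on genes in the 6 libraries, and 25920 to 27741 genes had at least 1 read. These are reads recovered from the FPKM values, and their totals are several-fold below the clean reads that the study lists for each library, a gap whose reason was not given in the sources used here. All read numbers, the limit of 1 read for a silent gene and the counting intervals below refer to the recovered reads. Over all genes detected, log2(FPKM + 1) values (FPKM, the number of sequenced fragments scaled to transcript length and to library depth) correlated at 0.942 to 0.963 between the CJ03 libraries, at 0.955 to 0.966 between the T202 libraries and at 0.871 to 0.933 between a CJ03 and a T202 library. The lowest of these values was that of CJ03 replicate 1 and T202 replicate 1. Predicted genes took 19.8%, 16.8% and 15.4% of the reads in the CJ03 libraries, against 12.03%, 14.2% and 13.8% in the T202 libraries. The CJ03 libraries were all above the T202 libraries in this share, and also in the share of reads in introns that the study lists for each library.

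Of 20978 genes tested, 1725 were called as differentially expressed genes (DEGs), or 8.22%, with 831 higher and 894 lower in CJ03 than in T202. A call needed an adjusted p-value under 0.05 (limma, Benjamini-Hochberg over all genes tested) together with a change of 2-fold or more in either direction. Fold changes were taken from log2(FPKM + 1) and are therefore smaller than the true change where FPKM is low. A fold change is that of CJ03 over T202. Among the 12026 reference loci tested, 813 were called, or 6.76%, and these were split into 282 loci that rose and 531 that fell in CJ03. Predicted genes showed another split, with 432 higher and 324 lower in CJ03 among 756 called of 7307 tested (10.3%). Short transcripts that carry Ensembl Plants identifiers, with a median length of 73 bases, had 117 higher and 39 lower among 156 called of 1629 tested. Where a transcript needed 10 reads on average in either line to be tested, only 29 were called higher and 14 lower. Most calls of this kind thus depended on testing transcripts with fewer reads, which the median given next also includes. The median log2 fold change was −0.11 over the reference loci, 0.12 over the predicted genes and 0.52 over the Ensembl Plants identifiers, beside −0.02 over all genes tested. The share of reads on predicted genes and in introns moved with these splits, and a fit with the intron share of each library as a covariate called 667 genes, 300 higher and 367 lower in CJ03. The intron share was higher in every CJ03 library than in any T202 library, so its effect and that of the line cannot be fully separated here. The direction of the split of the predicted genes was not stable. It turned to 166 higher and 176 lower with that covariate, to 232 and 266 without a filter on low FPKM, to 231 and 251 without CJ03 replicate 1, to 168 and 219 without CJ03 replicate 2, to 234 and 253 without T202 replicate 1 and to 208 and 229 without T202 replicate 3. The reference loci had more calls lower than higher in CJ03, and the Ensembl Plants identifiers more calls higher than lower, in each of these fits.

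**Figure D1:**
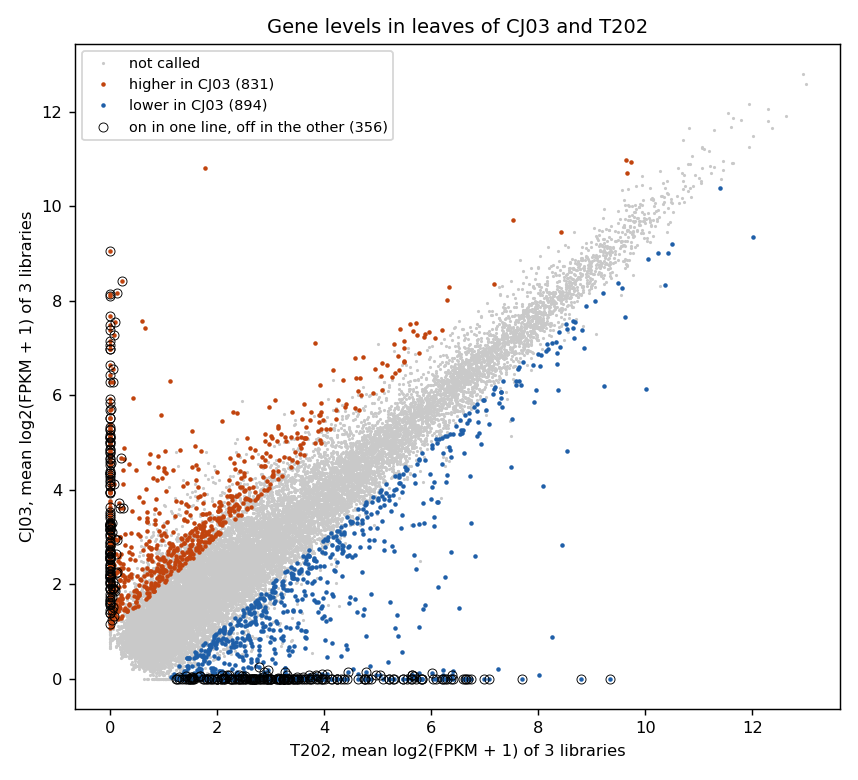
Mean log2(FPKM + 1) of the 3 CJ03 libraries (vertical axis) against that of the 3 T202 libraries (horizontal axis) for the 20978 genes tested. Orange points are the 831 DEGs higher in CJ03, blue points the 894 lower in CJ03, grey points genes not called, and circles the 356 genes read in one line and not in the other, which lie along the axes.

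The number of DEGs changed when 1 library was left out. It was 857 without CJ03 replicate 2, 980 without T202 replicate 3, 1094 without CJ03 replicate 1, 1099 without T202 replicate 1, 1167 without T202 replicate 2 and 2010 without CJ03 replicate 3. These fits had 2 libraries in 1 line, and a gene entered with 0.5 FPKM in 2 libraries, so 22089 to 22437 genes were tested. The effect of the library left out and that of the smaller number of libraries cannot be told apart here. CJ03 replicate 1 was the CJ03 library farthest from T202 at 158 of the 282 reference loci that rose and at 320 of the 531 that fell. T202 replicate 1 was the T202 library farthest from CJ03 at 184 and 292 of these loci. Where the libraries of the lower line were equal, as at loci with no read in that line, the locus was counted for replicate 1. The 320 and the 184 therefore include such ties and overstate how often replicate 1 stood apart.

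Many reference loci were at a similar level in both lines. For 6352 of the 12026 reference loci tested (52.8%), the 95% interval of the fold change lay within 2-fold in either direction, and 4861 loci (40.4%) were neither called nor held within that range. The loci with the most RNA in these leaves were among those not called. OS12G0515800 averaged 6814 ± 3715 FPKM in CJ03 and 9076 ± 5233 FPKM in T202 (SD, n = 3 each), with an adjusted p of 0.596 in limma. OS07G0141400 averaged 7261 ± 1833 FPKM in CJ03 and 7842 ± 402 FPKM in T202 (SD, n = 3 each, limma adjusted p = 0.605). In a bulk sample, fewer cells of a type and less RNA per cell cannot be told apart, here and in all results that follow. The difference at both loci was within the spread between pools.

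Most called loci differed by less than 4-fold. Of the 813 called reference loci, 570 differed by 2- to 4-fold, 139 by 4- to 8-fold and 104 by at least 8-fold on the log2(FPKM + 1) scale. At 341 loci the line with less RNA was under 1 FPKM on average, with 143 of these loci higher and 198 lower in CJ03. At 254 loci both lines averaged at least 5 FPKM, and here 53 loci were higher and 201 lower in CJ03. In 107 called loci the line with more RNA averaged at least 100 FPKM.

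A gene was described as on in a line where each of its 3 libraries had at least 1 FPKM and 10 reads, and as off where no library had more than 1 read. This is a description of the libraries and carries no test, and the choice of these genes fixes their direction. Of the 34524 genes detected in the 6 libraries, 152 (0.44%) were on in CJ03 and off in T202, and 204 (0.591%) were off in CJ03 and on in T202. The first set held 57 reference loci and 92 predicted genes beside 3 Ensembl Plants identifiers, and the second 77, 122 and 5. Not a single read was found in the T202 libraries for 121 of the 152 genes, and none in the CJ03 libraries for 161 of the 204 genes. Median levels in the line where the gene was on were alike, at 8.52 FPKM for the genes on in CJ03 and 8.16 FPKM for those on in T202. At least 100 FPKM was reached by 14 genes on in CJ03 and by 7 genes on in T202. Among all 15 pairs of the 6 GJ lines, the number of on/off genes ran between 69 (XS11 and KMD1) and 446 (CJ03 and XS11), and CJ03 and T202 with 356 were below the median pair at 383. The 6 pairs with fewer, at 69 to 291, were all among XS11, JH1, KMD1 and KMD2. Of the pairs that hold CJ03 or T202, theirs was the lowest, and the others had 383 to 446.

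The reference loci on in CJ03 and off in T202 included abundant transcripts. OS05G0195901, a transcript of 384 bases, had 386, 584 and 661 FPKM in the CJ03 libraries and 0 reads in all 3 T202 libraries. It was therefore at least 374-fold higher in CJ03, counted against 3 reads in each T202 library, a bound that covers counting error only. OS06G0580100 had 290.0, 270.3 and 259.8 FPKM in CJ03 and no read in T202, which makes it at least 1419.7-fold higher in CJ03. Its 3 CJ03 libraries differed little from each other, with a mean of 273 ± 15.3 FPKM (SD, n = 3), and XS11 was at 271 ± 8.70 FPKM (SD, n = 3). OS10G0111800 had 309, 298 and 423 FPKM in CJ03, against 0.24, 0 and 0.30 FPKM in T202, where the values stand for 1, 0 and 1 read. From the reads summed over the 3 libraries of each line and scaled to depth, the ratio of CJ03 to T202 was 2007. Its exact 95% counting interval of 555 to 16579.5 leaves out the spread between pools. OS01G0780900 had 248, 309 and 302 FPKM in CJ03, against 1, 0 and 1 read in T202. OS03G0204300 had 166, 178 and 191 FPKM in CJ03 and no read in T202, and was at least 532-fold higher in CJ03. All 5 of these loci were also on in XS11, at 271 to 685 FPKM on average.

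OS09G0467700 was different in this respect. It had 212, 304 and 349 FPKM in CJ03 and no read in T202, at least 453-fold higher in CJ03, and XS11 had no read in any library. JH1 averaged 369 FPKM at this locus, whereas KMD1 had none. OS04G0604500 had 139.7, 190.1 and 167 FPKM in CJ03 and no read in T202, at least 155-fold higher in CJ03. XS11 averaged 0.41 FPKM there and the XI line MH63 averaged 122 FPKM.

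The loci off in CJ03 and on in T202 were led by OS07G0255300, which had no read in CJ03, against 509.7, 408 and 417 FPKM in the T202 libraries. It was at least 533-fold lower in CJ03. XS11 averaged 491 ± 92.5 FPKM (SD, n = 3) at this locus, JH1 averaged 504 FPKM, KMD1 185 FPKM and KMD2 0.15 FPKM. OS07G0242050, on the same chromosome, had no read in CJ03, against 67.9, 58.9 and 76.6 FPKM in T202, and its averages were 55.2 FPKM in XS11, 29.3 FPKM in KMD1 and 0 in KMD2. The 3 libraries of CJ03 thus stood beside those of KMD2 at both loci.

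OS05G0507400 had no read in CJ03, against 106, 70.9 and 78.1 FPKM in T202, and was at least 97.4-fold lower in CJ03. Here T202 was above XS11, which averaged 41.7 ± 6.53 FPKM (SD, n = 3). OS01G0820800 had 0, 0 and 1 read in CJ03, against 84.9, 74.8 and 89.6 FPKM in T202, a level near that of XS11 with 88.2 ± 2.89 FPKM (SD, n = 3). OS09G0355400 had no read in CJ03, against 91.0, 99.7 and 105 FPKM in T202. This locus was at least 781-fold lower in CJ03, and XS11 had only 1 library with any read. OS04G0372400 had no read in CJ03, against 78.3, 80.4 and 74.4 FPKM in T202, and was at 0 in all 3 XS11 libraries, while KMD1 averaged 97.0 FPKM and KMD2 80.7 FPKM. OS08G0192100 had 0, 1 and 0 reads in CJ03, against 96.1, 45.6 and 59.5 FPKM in T202, and MH63 averaged 46.7 FPKM.

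**Figure D2:**
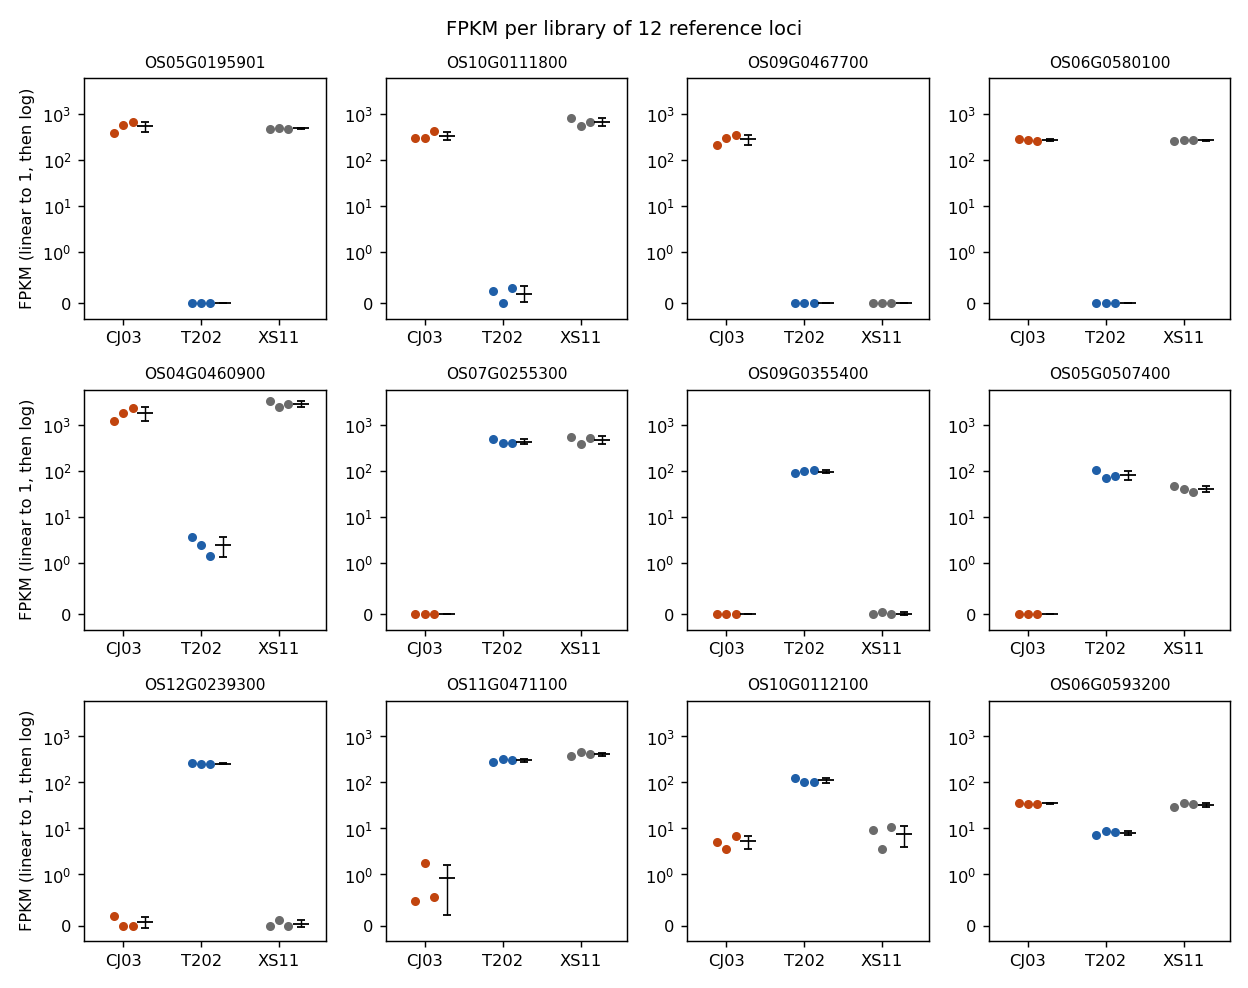
FPKM in each of the 3 libraries of CJ03, T202 and XS11 (coloured points, in this order from left to right) for 12 reference loci, with the mean and SD in black; the vertical axis is linear up to 1 FPKM and logarithmic above. At OS09G0467700, OS09G0355400 and OS12G0239300 only 1 of CJ03 and T202 carried the RNA and XS11 was at or near 0, whereas at OS05G0195901, OS06G0580100 and OS07G0255300 XS11 stood beside the line that was on.

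Several loci differed as much without meeting the on/off definition, because 1 or more libraries of the lower line held over 1 read. OS04G0460900 was the most abundant of these, with 1240.3, 1897 and 2443 FPKM in CJ03, against 3.71, 2.46 and 1.44 FPKM in T202. Its libraries did not overlap between lines, and the log2 fold change was 9.04 ± 0.32 (SE, limma adjusted p = 2.32e-06). XS11 averaged 2957 FPKM. The XI lines were spread widely, from 0.996 FPKM in T1C-19 to 1473 FPKM in XIY63 on average, with MH63 at 82.4 ± 137 FPKM (SD, n = 3). OS12G0239300 was in the opposite direction, with 0.18, 0 and 0 FPKM in CJ03, against 267, 246 and 256 FPKM in T202. From summed reads scaled to depth, the ratio of T202 to CJ03, which had 2 reads in all, was 3907. Its exact 95% counting interval of 1081 to 32267 leaves out the spread between pools. XS11 averaged 0.04 FPKM at this locus and JH1 163 FPKM. OS11G0471100 had 0.48, 1.76 and 0.56 FPKM in CJ03, against 281, 326 and 307 FPKM in T202, and the log2 fold change was −7.36 ± 0.26 (SE, limma adjusted p = 2.32e-06). All other GJ lines were high at this locus, with averages of 405 to 447 FPKM, and MH63 was at 0.06 FPKM. Among the XI lines JY63 averaged 131 FPKM, and the rest averaged no more than 0.902 FPKM.

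Graded differences, between lines that both averaged at least 5 FPKM, were larger in the direction lower in CJ03. OS10G0112100 had 5.18, 3.62 and 6.83 FPKM in CJ03, against 128, 104 and 105 FPKM in T202, with a log2 fold change of −4.22 ± 0.23 (SE, limma adjusted p = 2.28e-05). It is the next tested locus after OS10G0111800, which was on in CJ03 and off in T202, so that neighbouring loci differed in opposite directions. OS11G0670900 had 5.82, 8.55 and 13.4 FPKM in CJ03, against 99.996, 105 and 113 FPKM in T202 (log2 fold change −3.45 ± 0.28 SE, limma adjusted p = 0.000192), and no read in XS11. OS06G0538900 had 59.6, 64.7 and 99.5 FPKM in CJ03, against 643, 607 and 557 FPKM in T202. The log2 fold change was −3.03 ± 0.21 (SE, limma adjusted p = 9.14e-05), and XS11 stood between both lines at 328 ± 30.6 FPKM (SD, n = 3).

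OS05G0217800 varied widely within T202. It had 18.4, 25.3 and 42.1 FPKM in CJ03, against 766, 345 and 192 FPKM in T202, with a log2 fold change of −3.73 ± 0.50 (SE, limma adjusted p = 0.00372). OS04G0228400 had 6.23, 2.65 and 7.84 FPKM in CJ03, against 30.04, 62.2 and 68.6 FPKM in T202 (log2 fold change −3.06 ± 0.42 SE, limma adjusted p = 0.00394). OS02G0258800 had 241, 33.9 and 39.4 FPKM in CJ03, against 659.8, 1076 and 1521 FPKM in T202, and CJ03 replicate 1 stood well above the other CJ03 libraries. Its log2 fold change of −3.88 ± 0.71 (SE, limma adjusted p = 0.0154) lost its call without CJ03 replicate 2 (adjusted p = 0.0715), without T202 replicate 2 (0.0629) and without T202 replicate 3 (0.0782).

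Among the graded increases, OS06G0593200 was the most even. It had 36.5, 33.8 and 34.6 FPKM in CJ03, against 7.20, 8.73 and 8.57 FPKM in T202, with a log2 fold change of 1.98 ± 0.16 (SE, limma adjusted p = 0.000228). XS11 averaged 32.9 FPKM, close to CJ03, and MH63 6.98 FPKM, close to T202. The XI lines ran from 5.51 FPKM in HH1 to 18.8 FPKM in XIY63 on average. The other 5 of the 6 largest graded increases shared another pattern, in which CJ03 replicate 1 was the highest CJ03 library and T202 replicate 1 the lowest T202 library. OS03G0738400 had 192, 107 and 62.1 FPKM in CJ03, against 16.2, 29.1 and 25.1 FPKM in T202 (log2 fold change 2.20 ± 0.40 SE, limma adjusted p = 0.0153). OS02G0698000 had 108, 82.6 and 44.8 FPKM in CJ03, against 7.15, 19.2 and 20.1 FPKM in T202 (log2 fold change 2.30 ± 0.45 SE, limma adjusted p = 0.0194). The calls of these 5 loci did not hold when single libraries were left out. OS02G0698000 had an adjusted p of 0.0761 without CJ03 replicate 1, 0.0955 without CJ03 replicate 2 and 0.0503 without T202 replicate 3, and OS03G0738400 had 0.0747 without CJ03 replicate 2, 0.0692 without T202 replicate 1 and 0.0641 without T202 replicate 3. OS06G0270900, OS01G0618400 and OS02G0707100 behaved likewise, with adjusted p-values of 0.0911, 0.127 and 0.146 without CJ03 replicate 2.

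XS11 was not uniformly on the side of either line. Among the 282 reference loci higher in CJ03, the XS11 mean on the log2(FPKM + 1) scale was nearer to CJ03 at 114 (40.4%) and nearer to T202 at 168 (59.6%). Among the 531 loci lower in CJ03 it was nearer to CJ03 at 312 (58.8%) and nearer to T202 at 219 (41.2%). XS11 lay outside the range between both lines at 110 and 205 of these loci.

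Among the on/off genes, too, XS11 stood on the side of either line. Of the 152 genes on in CJ03 and off in T202, 62 (40.8%) were on and 70 off in XS11. Of the 204 genes off in CJ03 and on in T202, 95 (46.6%) were on and 88 off in XS11. JH1, KMD1 and KMD2 had 47.4%, 43.4% and 45.4% of the first set on, and 40.7%, 44.6% and 33.3% of the second. The 7 XI lines had 13.2% to 23.0% of the first set on and 19.6% to 26.5% of the second. All other 4 GJ lines were on at 45 genes of the first set, so that T202 alone of the GJ lines was off. The same held for CJ03 at 44 genes of the second set. All 4 were off at 30 genes of the first set and at 57 of the second, and at 4 of these 30 and 17 of these 57 genes at least 1 XI line was on.

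**Figure D3:**
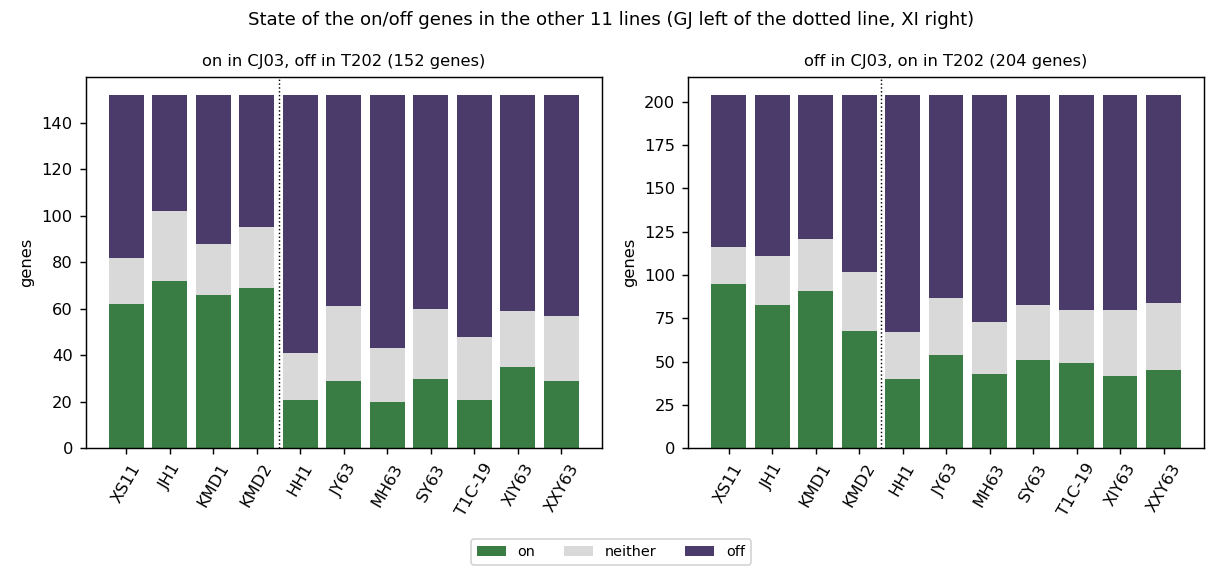
Number of genes (vertical axis) that were on (green), off (purple) or neither (grey) in each of the other 11 lines, for the 152 genes on in CJ03 and off in T202 (left) and the 204 genes off in CJ03 and on in T202 (right). The 4 GJ lines at the left of each panel had 62 to 72 and 68 to 95 genes on, and the 7 XI lines 20 to 35 and 40 to 54.

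Some loci were read in a single line of the 13. Of the genes on in CJ03, 19 were off in all other 12 lines, 8 of them reference loci, and of the genes on in T202, 31 were off in all other lines, 10 of them reference loci. OS02G0238150 had 43.7, 33.1 and 25.7 FPKM in CJ03, from 1092 reads, and no read in the other 36 libraries. OS11G0525500 had 24.9, 30.8 and 47.4 FPKM in CJ03 and 1 read in the other 36 libraries. The strongest locus of this kind in T202 was OS11G0585200, which had 50.01, 38.4 and 42.2 FPKM there, from 546 reads, and 1 read in all other libraries together. OS09G0354900 had 24.9, 29.3 and 25.6 FPKM in T202, and its only other read was in a CJ03 library. OS03G0651700 had 7.94, 9.36 and 6.87 FPKM in T202 and no read elsewhere.

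Predicted genes made up 214 of the 356 on/off genes. The predicted gene with running number 31071 had no read in CJ03, against 698, 584 and 658 FPKM in T202, at least 955-fold lower in CJ03, with 492 FPKM in KMD1, 611 FPKM in KMD2 and 0.18 FPKM in XS11. The predicted gene with running number 6386 had no read in CJ03, against 180.4, 129 and 102 FPKM in T202, and no read in XS11. In the other direction, number 9843 had 157, 203 and 259 FPKM in CJ03 and no read in T202, at least 627-fold higher in CJ03, and 339 FPKM in XS11. Number 13362 had 220.1, 147 and 200.4 FPKM in CJ03, against 1 read in all T202 libraries together, and no read in XS11. Predicted genes can overlap reference loci or each other, and how reads were shared between such copies was not stated, nor whether strand was used, so these values are less certain than those of the reference loci.

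Called loci lay unevenly along the genome. The share of tested reference loci that were called was lowest on chromosome 2 (64 of 1429, 4.48%) and highest on chromosome 11 (69 of 691, 9.99%). On/off loci differed in direction between chromosomes. Among 926 tested loci of chromosome 7, 0 were on only in CJ03 and 10 only in T202, against 13 and 5 among 968 of chromosome 6. Of these 13 loci, 9 lay in 1 stretch of 16 tested loci, so this count largely describes that stretch. Of the 10 loci of chromosome 7, 7 were on in XS11, and of the 13 loci of chromosome 6, 8 were on in XS11. On chromosome 9, 8 loci were off in CJ03 and on in T202, and none of them was on in XS11. Of these 8, 7 lay in 1 stretch of 17 tested loci. Of the 813 called loci, the next tested locus was also called at 144 (17.7%, beside 6.76% called over all reference loci). At 100 of these 144 pairs (69.4%) both loci differed in the same direction. The called loci were themselves uneven in direction, with 282 higher and 531 lower in CJ03, so many pairs share a direction by this split alone. Of the 134 on/off reference loci, 24 were followed directly by another (17.9%, beside 1.11% on/off over all reference loci tested), and at 21 of these 24 pairs the same line was on. The other 3 pairs were OS01G0520180 with OS01G0520800, OS04G0420300 with OS04G0420500, and OS11G0226550 with OS11G0227300, in each of which the first locus was on only in CJ03 and the second only in T202.

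**Figure D4:**
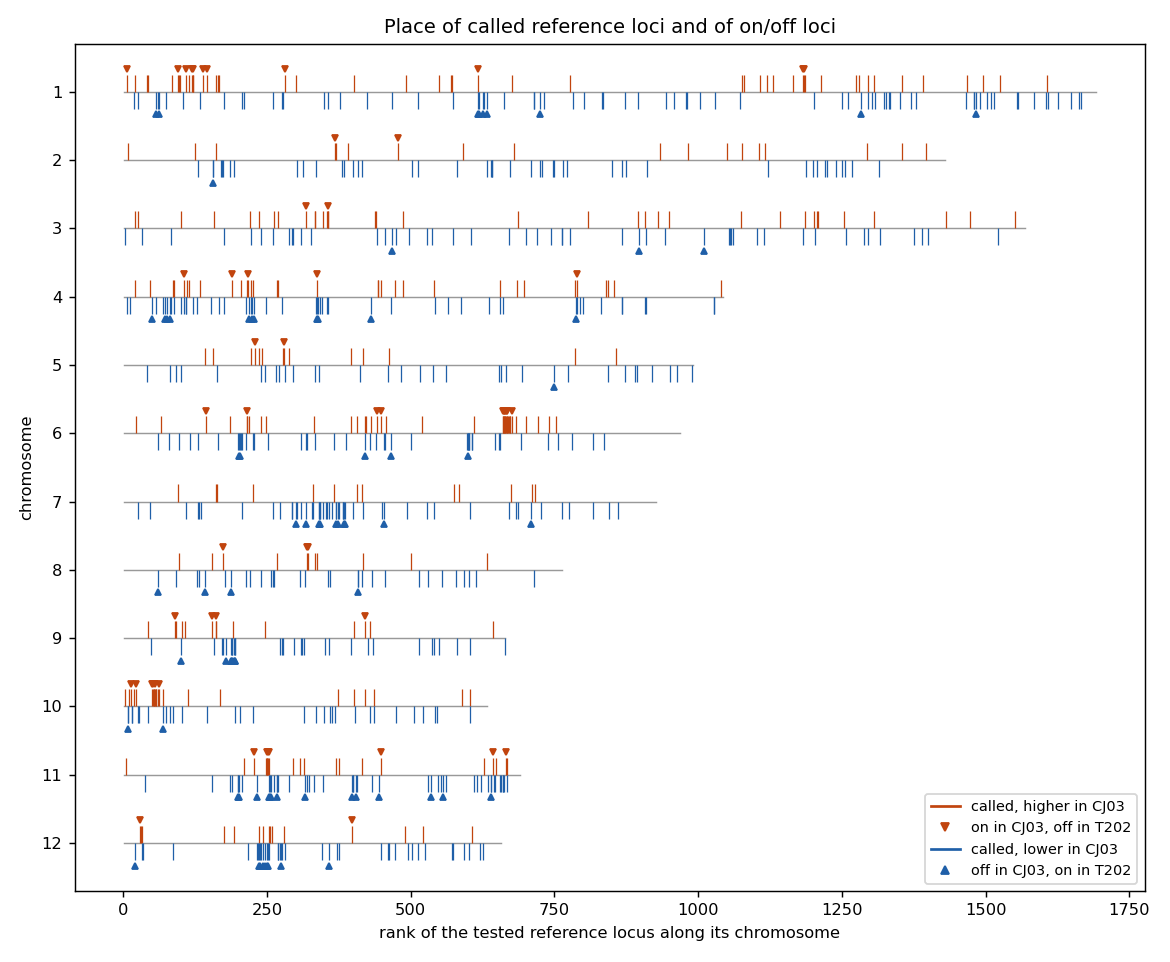
Tested reference loci in order along each of the 12 chromosomes (horizontal axis, rank of the locus; vertical axis, chromosome). Orange ticks above a line mark called loci higher in CJ03 and blue ticks below it loci lower in CJ03, and triangles mark on/off loci; orange marks stand close together on chromosome 6 and blue marks on chromosomes 7 and 12.

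Windows of 50 consecutive tested loci held a median of 3 called loci, and 966 of 11438 such windows held none. The window with the most calls lay on chromosome 12, from OS12G0209200 to OS12G0254700, with 22 called loci, 6 higher and 16 lower in CJ03, of which 7 were off in CJ03 and on in T202. The next lay on chromosome 6, from OS06G0565000 to OS06G0600400, with 19 called loci, 15 higher and 4 lower in CJ03, of which 9 were on in CJ03 and off in T202. The third lay on chromosome 7, from OS07G0275475 to OS07G0446600, with 18 called loci, 1 higher and 17 lower in CJ03, and 6 of them off in CJ03 and on in T202. Windows of 17 called loci followed on chromosome 10, from OS10G0105900 to OS10G0137700 (10 higher and 7 lower in CJ03), and on chromosome 11, from OS11G0643700 to OS11G0686500 (5 higher and 12 lower in CJ03). These windows were chosen for their number of calls, which is therefore a description. With the intron share, which followed line, as a covariate, the first 3 windows held 9, 10 and 9 called loci.

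The level of XS11, which played no part in choosing the windows, differed between them. In the window of chromosome 6, XS11 was nearer to CJ03 at 18 of the 19 called loci, and in that of chromosome 7 it was nearer to T202 at 16 of the 18. In the window of chromosome 12 it was nearer to each line at 11 of the 22 loci, and in that of chromosome 10 nearer to CJ03 at 12 of the 17. Within the window of chromosome 7, OS07G0281500 had 0.32, 0 and 0 FPKM in CJ03, against 19.97, 16.9 and 26.4 FPKM in T202 and 14.3 FPKM on average in XS11. OS07G0421000 had no read in CJ03, against 7.01, 9.12 and 7.13 FPKM in T202, with 9.35 FPKM in XS11. OS07G0297200 had 2.31, 3.88 and 5.61 FPKM in CJ03, against 22.2, 27.5 and 26.1 FPKM in T202, with 36.2 FPKM in XS11 (log2 fold change −2.46 ± 0.27 SE, limma adjusted p = 0.00118). KMD2 averaged 0, 0 and 7.13 FPKM at these 3 loci. The single called locus of this window that was higher in CJ03, OS07G0414900, averaged 4.84 ± 0.495 FPKM in CJ03 and 0.908 ± 0.288 FPKM in T202 (SD, n = 3 each), with 0.344 FPKM in XS11.

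On/off loci of 1 direction formed 9 runs of at least 3 loci, each no more than 10 tested loci from the last, and these runs held 43 of the 134 on/off reference loci. The longest run lay on chromosome 6, where 9 loci between OS06G0579600 and OS06G0590800 were on in CJ03 and off in T202 within 16 tested loci. The first 8 of them followed each other directly in the tested order. OS06G0582400 had 106, 118 and 157 FPKM in CJ03 and no read in T202. OS06G0581701 had 54.5, 44.3 and 53.8 FPKM in CJ03 and no read in T202, and OS06G0582600 had 307, 119 and 99.6 FPKM in CJ03, against 0, 0 and 1 read in T202. OS06G0582600 and OS06G0581500 varied most within CJ03, and both were highest in replicate 1. XS11, JH1 and KMD2 had 7 of the 9 loci on and KMD1 8 of the 9. No locus of the run was on in any XI line, and 8 of the 9 were off in MH63, so that the T202 libraries stood beside those of the XI lines over this stretch and the other GJ lines beside CJ03. OS06G0593200, the graded locus described above, lies a little further along the same chromosome.

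The run on chromosome 9 had the opposite form. Between OS09G0344400 and OS09G0357300, 7 loci were off in CJ03 and on in T202 within 17 tested loci, among them OS09G0355400, with 98.5 ± 6.92 FPKM in T202 (SD, n = 3). OS09G0357250 had no read in CJ03, against 11.2, 20.9 and 20.1 FPKM in T202. None of the 7 loci was on in XS11, JH1, KMD1 or KMD2. Of the XI lines, each had 1 or 2 of the 7 loci on, and MH63 averaged 5.83 FPKM at OS09G0357250.

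On chromosome 12, 6 loci between OS12G0216500 and OS12G0225900 were off in CJ03 and on in T202. OS12G0218300 had no read in CJ03, against 49.8, 48.5 and 47.0 FPKM in T202, and OS12G0221600 no read in CJ03, against 36.3, 50.5 and 53.4 FPKM in T202. JH1 had 5 of the 6 loci on and none off, whereas XS11 and KMD1 had 2 on and 4 off. At OS12G0221600, JH1 averaged 30.3 FPKM and XS11, KMD1 and KMD2 were at 0. OS12G0239300, further along this chromosome and described above, was distributed over the GJ lines in the same way, with 256 FPKM in T202, 163 FPKM in JH1 and less than 0.1 FPKM in the other 4.

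Chromosome 11 held a run of each direction side by side. OS11G0225300, OS11G0226400 and OS11G0226550 were on in CJ03 and off in T202, and follow each other directly in the tested order. OS11G0226400 had 12.8, 14.6 and 15.4 FPKM in CJ03 and no read in T202, with 20.3 FPKM in XS11. The next tested locus, OS11G0227300, had no read in CJ03, against 3.11, 4.01 and 4.53 FPKM in T202, and no other line had a read there. OS11G0229000 and OS11G0229100 were likewise read in T202 only, with 3.12 and 1.84 FPKM on average. The last locus of this run, OS11G0237600, differed from the others in being on in XS11 and in all 7 XI lines. It had no read in CJ03, against 8.71, 9.83 and 10.7 FPKM in T202. JH1 averaged 0.04 FPKM at OS11G0237600 and had no read at the neighbouring OS11G0237700, where CJ03 had 0, 0.28 and 0.16 FPKM, against 77.6, 71.8 and 72.8 FPKM in T202.

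The other 4 runs lay on chromosomes 1, 4 and 10. On chromosome 1, 4 loci between OS01G0520800 and OS01G0539400 were off in CJ03 and on in T202, and 3 of the 4 were on in each of XS11, JH1, KMD1 and KMD2. The most abundant of them, OS01G0539400, had 0, 0 and 0.10 FPKM in CJ03, against 39.2, 59.1 and 55.4 FPKM in T202, and was read in every other GJ line at 71.3 to 86.0 FPKM on average. On chromosome 4, 2 runs of 3 loci each were off in CJ03 and on in T202, one between OS04G0171600 and OS04G0175750 and the other between OS04G0362375 and OS04G0372400. In the stretch that begins with OS04G0171600, OS04G0172560 had no read in CJ03, against 59.7, 51.3 and 54.5 FPKM in T202, with 25.8 FPKM in XS11 and no read in JH1. On chromosome 10, 4 loci between OS10G0135700 and OS10G0141500 were on in CJ03 and off in T202. OS10G0136100 had 9.18, 8.31 and 7.90 FPKM in CJ03 and no read in T202, with 6.78 FPKM in XS11, and OS10G0137100 had 4.09, 3.17 and 3.03 FPKM in CJ03 and was off in all other 12 lines.

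**Figure D5:**
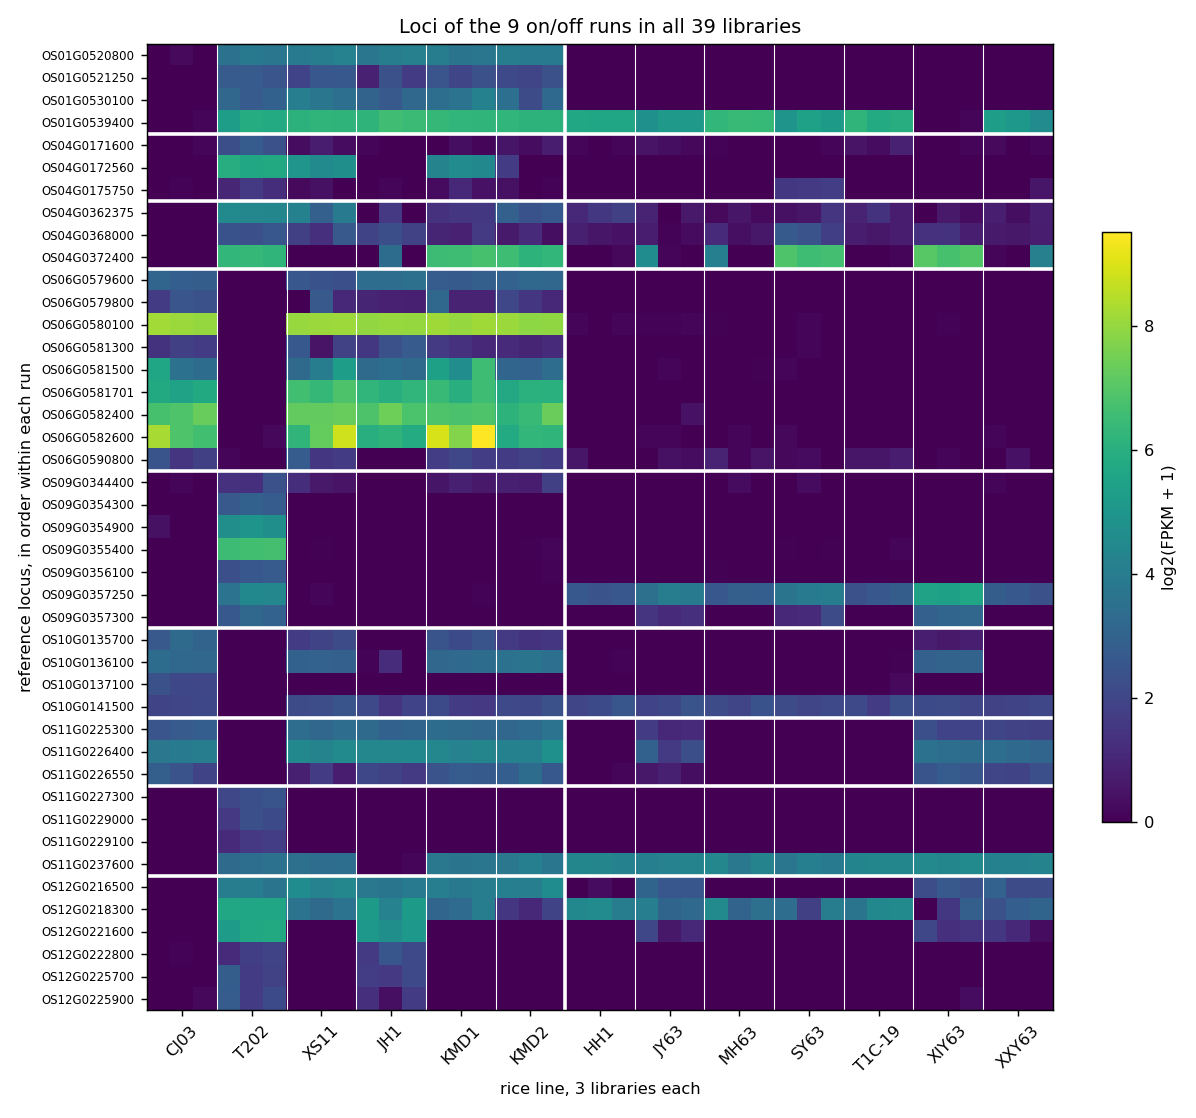
Level, as log2(FPKM + 1) in colour, of the 43 loci of the 9 on/off runs (rows, in order within each run, runs separated by white lines) in all 39 libraries (columns, 3 for each line, GJ lines left of the thick line and XI lines right of it). The run of chromosome 6 is dark in T202 and in the XI lines, and the run of chromosome 9 is bright in T202 among the GJ lines. The run of chromosome 12 is bright in T202 and JH1, and its loci OS12G0216500 and OS12G0218300 also carry signal in other GJ and XI lines.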

How the data were processed

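Leaf blades of 13 rice lines were sampled for RNA sequencing as 3 pools of plants each. Per the labels and the study's methods, the authors used HISAT2 2.09 for alignment (genome IRGSP-1.0) and featureCounts 1.5.0-p3 for counting, and deposited FPKM values, 1 file for each library. The authors tested their counts with DESeq2, and its results were not used here. The deposited FPKM values had been scaled across libraries: with median-of-ratios size factors removed, every library had 1 and the same read total (5566924) in the denominator.

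Gene length and reads were recovered from the steps in which a gene's FPKM differed between libraries. All 1036152 values above 0 came out whole within 0.01 read, but this was the condition for accepting a gene's length and is not a check of it. The smallest length that met the condition was taken, so a factor common to all reads of a gene would be lost. The totals of the recovered reads are several-fold below the clean reads listed by the study, and the reason for the gap is not given in the sources used here. The recovered reads served for the variance trend, on/off genes, counting intervals and thinning only.

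CJ03 and T202 were compared from their 6 libraries by limma 3.58.1 (R 4.3.3), applied to FPKM on a log2 scale with a pseudocount of 1. Genes entered the test if 3 or more of the libraries reached 0.5 FPKM, and the variance trend followed mean log2 reads. The thresholds were an adjusted p-value of 0.05 (Benjamini-Hochberg) and a 2-fold change in either direction. Because the deposited values are FPKM, no count test was the main test. The lines and the genes described were chosen with earlier results of these data known.

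Named loci are the 10 largest changes in each direction with a mean of at least 5 FPKM in the higher line and libraries that do not overlap, the 6 reference loci and 2 predicted genes with the highest mean among on/off genes in each direction, up to 4 called loci in each of the 3 windows with the most calls, 6 graded changes in each direction, and the loci of on/off runs. The text gives values for some of these. Windows by order of loci, graded changes and runs were chosen after seeing the data, as were the loci on in a single line. Gene lists by product name and windows of genome distance were left out because the reference table names and places none of these loci except 1. The test was tested on simulated data. Alternatives were a pseudocount of 0.1, other filters and trends, voom on the recovered reads with trimmed-mean (TMM) factors, 6 GJ lines in 1 model, FPKM over plain read totals, the intron share of each library as a covariate, a replicate block, no fold threshold, other on/off limits, thinning to 4678465 reads and each library left out. Python 3.11.15, matplotlib 3.10.9, scipy 1.17.1, numpy 2.4.6 and pandas 2.3.3 were used.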

Additional observations from a re-analysis of the deposited data

How the results depend on the processing

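The number of DEGs (1725, with 831 higher and 894 lower in CJ03) stayed within 1.5 times of these values with a pseudocount of 0.1, a minimum of 10 reads, limma's default trend, voom (2214), the 6 GJ lines in 1 model (2297), plain read totals (1620) and no minimum fold change (2128). The balance of direction was not stable among these. More genes were higher than lower in CJ03 with voom (1201 and 1013) and with 6 GJ lines in 1 model (1205 and 1092). The same held with plain read totals (837 and 783) and a pseudocount of 0.1 (987 and 967). With a minimum of 10 reads, the default trend or no minimum fold change, more were lower. The number of DEGs was 1126 (492 higher) without a filter, which tested 34524 genes, and 667 (300 higher, 367 lower) with the intron share as covariate. Leaving out 1 library, with 2 libraries kept in that line, gave 857 to 2010 DEGs, 372 to 990 higher and 485 to 1020 lower in CJ03. With a replicate block the number was 866 (367 higher, 499 lower), and the predicted genes were split into 183 higher and 217 lower. Deviations of same-numbered libraries from their line means correlated at −0.23, 0.01 and −0.14. Those of libraries with different numbers correlated at −0.096 to 0.200. How the replicates were numbered is not stated in the sources used here. Whether a number stands for a shared batch was not tested. Of 79 named genes, 64 kept call and direction under every alternative run, and the other 15 lost the call under at least 1 of them without changing direction. On/off genes (356) ran from 282 with 0 reads as off to 479 with on at 0.5 FPKM and 5 reads, and from 374 to 387 with 1 library left out. Thinned libraries gave 343, 330 of them shared with the 356. Gene lists and their alternatives were not run. At this depth, 3 reads on a transcript of 1 kilobase stand for 0.498 to 0.654 FPKM, so a line described as off may hold RNA below that level. Changes of genes with low FPKM rest on few reads, and the causes of these shifts were not tested.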

Other observations

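The windows of 17 called loci on chromosomes 10 and 11 held loci of both directions close together. These loci were chosen after their values had been seen, and the values are given as a description. On chromosome 10, OS10G0113000 averaged 38.3 ± 13.2 FPKM in CJ03 and 1.94 ± 0.674 FPKM in T202, with 67.3 FPKM in XS11, while OS10G0112500, which precedes it, averaged 2.27 ± 1.46 FPKM in CJ03 and 21.3 ± 3.47 FPKM in T202 (SD, n = 3 each), with 4.29 FPKM in XS11. OS10G0136200 averaged 12.5 ± 1.70 FPKM in CJ03 and 0.548 ± 0.124 FPKM in T202 (SD, n = 3 each). It lies within the run of loci that were on in CJ03 and off in T202 on this chromosome, and XS11 averaged 11.2 FPKM there.

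On chromosome 11, OS11G0670100 averaged 11.3 ± 2.04 FPKM in CJ03 and 0.178 ± 0.027 FPKM in T202 (SD, n = 3 each), a few loci before OS11G0670900, at which T202 was the higher line. OS11G0685400 averaged 6.01 ± 1.04 FPKM in CJ03 (SD, n = 3) and had no read in T202 or XS11. OS11G0665600 had no read in CJ03 and averaged 5.46 ± 0.534 FPKM in T202 (SD, n = 3), with 27.2 FPKM in XS11. OS11G0684000 averaged 2.35 ± 0.210 FPKM in CJ03 and 23.7 ± 23.7 FPKM in T202 (SD, n = 3 each), with a T202 spread as wide as the T202 mean.

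On chromosome 12, loci higher in CJ03 lay among those that were lower. OS12G0230600 averaged 21.1 ± 5.04 FPKM in CJ03 and 4.19 ± 1.29 FPKM in T202 (SD, n = 3 each), with 18.05 FPKM in XS11. OS12G0221700, the next called locus after OS12G0221600, averaged 6.70 ± 2.08 FPKM in CJ03 and 0.743 ± 0.692 FPKM in T202 (SD, n = 3 each), with 0.281 FPKM in XS11.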
